A study of Mus musculus with 4 samples.

Results

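The genes described here are the aryl hydrocarbon receptor Ahr, its partner Arnt, the receptor repressor Ahrr, the feedback regulator Tiparp, and the target genes Cyp1a1, Cyp1b1 and Nqo1. They were chosen by name, and all 7 were found among the 25413 genes of the count table. These genes, and the gene lists used below, were chosen with earlier results of these data known. Polyadenylated RNA had been sequenced from EpH4, an immortalised line of mammary epithelial cells from the mouse, in 4 libraries. The cells were wild type in every library and grew in 2D. There were 2 untreated control libraries and 2 libraries from cells exposed to PM2.5, fine airborne particulate matter, whose dose and exposure time are not stated in the labels. All libraries carry a single batch value. The labels do not say whether the libraries of a group came from separate cultures. The p-values therefore cover only the spread among these 4 samples, and that spread may be technical.

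AHR is a ligand-activated transcription factor of the basic helix-loop-helix PAS family. It rests in the cytoplasm in a complex with the chaperone HSP90, and ligands such as polycyclic aromatic hydrocarbons, which particulate matter from combustion can carry, release it to the nucleus. There it pairs with ARNT and binds xenobiotic response elements of DNA, where it raises the transcription of detoxification genes and of its own repressors.

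The labelled cell type was checked against marker lists. Of 15 epithelial markers, 14 had a mean below 1 CPM (the count scaled to the library's total after TMM scaling), so defining genes of epithelium were absent or nearly so. Throughout the libraries no count fell on Krt18, Krt19, Krt5, Epcam, Cldn4 or Esrp1. The summed level of the epithelial list was 51.6 to 53.6 CPM in controls, against 21.1 to 22.1 CPM under PM2.5, nearly all of it Krt14, a basal keratin. Of this list 2 genes were tested, and by the edgeR test described below Krt14 was called lower and Grhl2 higher. Grhl2 had 2 and 6 counts in controls, and 12 and 19 under PM2.5, and had enough counts to be tested only through the PM2.5 libraries. Krt8, too low to test, had 1 and 3 counts in controls, and 9 and 20 under PM2.5. The 15 fibroblast and mesenchymal markers summed to 9039 to 9698 CPM in controls, against 6740 to 7382 CPM under PM2.5. Vim, Fn1 and Col1a2, each called lower, made up most of these sums. Of 13 tested, 7 were called lower and 3 higher, beside 20.4% and 19.2% of all genes tested. Those higher were Dcn (means of 63.9 and then 251 CPM), Col3a1 (2.62 and 8.26 CPM) and Col1a1 (8.46 and 11.8 CPM). The 9 immune markers summed to 9.1 to 10.2 CPM in controls, against 17.9 to 19.4 CPM under PM2.5, mostly Cd68 and Lyz2, with Cd3e and Itgam at 0 and Ptprc at means of 0.0651 and 0.103 CPM. Of the immune list, 3 genes were tested, and Cd3g and Cd68 were called higher by the edgeR test described below. Cd3g, a T-cell receptor subunit gene, had 1 and 1 counts in controls, and 45 and 33 under PM2.5 (log2 fold change 5.29, SE 0.56), while Cd68, a macrophage marker, rose from 3.93 to 9.67 CPM. Cd3g had enough counts to be tested only through the PM2.5 libraries. All 5 endothelial markers had a mean below 1 CPM, with Tie1 and Emcn at 0. The part of these shifts in the results on the receptor genes was not tested. Total counts ranged from 18548478 to 26206329 per library.

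The downstream genes Cyp1b1, Tiparp and Nqo1 rose in PM2.5, while the transcripts of the receptor and of its partner were not called changed. Cyp1b1 went from 4.06 ± 0.238 to 20.3 ± 0.516 CPM (mean ± SD, n = 2 libraries in each group). Tiparp and Nqo1 rose 1.86-fold and 1.77-fold. Cyp1a1, the enzyme gene most often used as a readout of the receptor, was at or near 0 counts in every library. Of the 7 genes, 5 had enough counts to be tested, and 3 of these were called higher and 0 lower (edgeR quasi-likelihood test, Benjamini-Hochberg adjusted p below 0.05 over 12478 genes). The number lower was also 0 at an unadjusted p below 0.05, with DESeq2 and with limma. Among all genes tested, 19.2% were called higher and 20.4% lower by the same rule, 39.6% in all. With library size as the only scaling, 3090 genes were called higher and 1889 lower, against 2399 and 2540 with TMM scaling. In bulk RNA, a change in the number of cells that express a gene and a change in RNA per cell cannot be told apart.

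**Figure D1:**
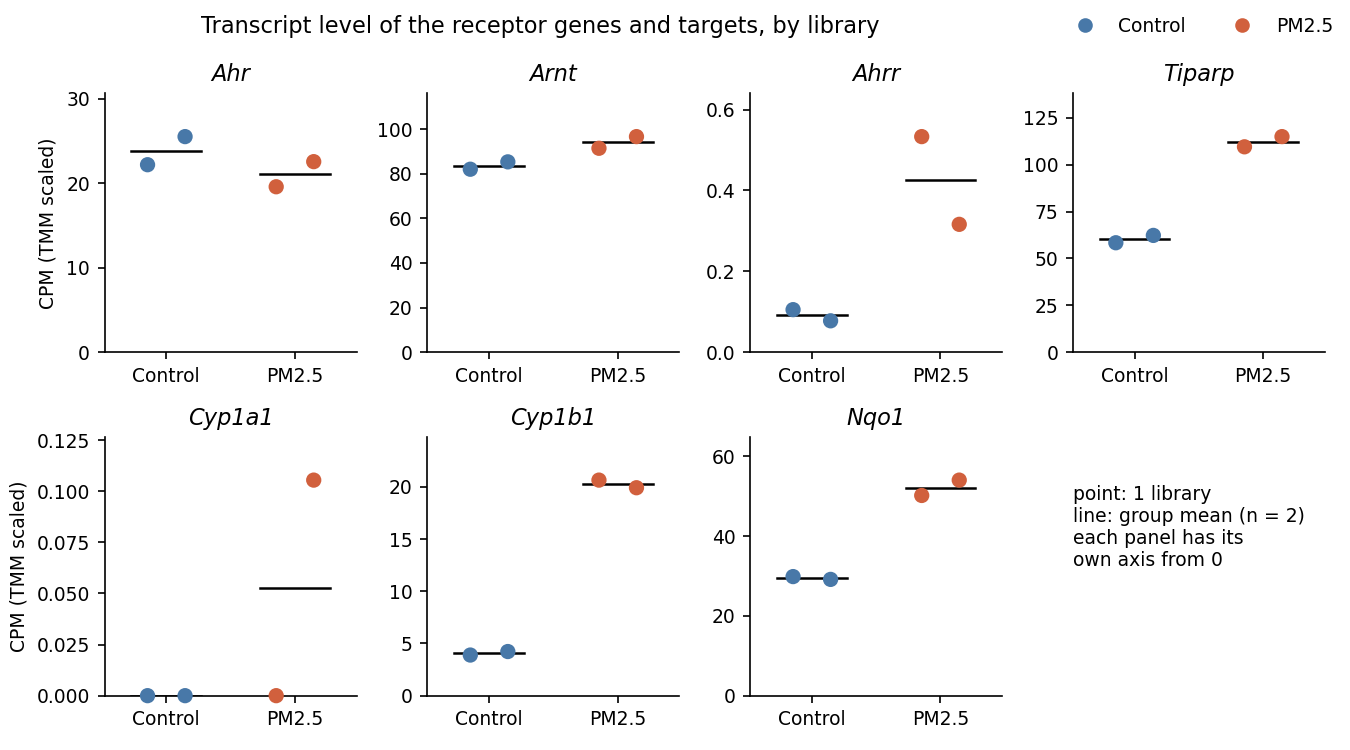
TMM-scaled CPM of each gene in each library (points) with the group mean (lines, n = 2), control libraries on the left and PM2.5 libraries on the right of each panel, each panel with its own axis from 0. Both PM2.5 libraries lie above both controls for Arnt, Ahrr, Tiparp, Cyp1b1 and Nqo1, while the groups overlap for Ahr, and Cyp1a1 is above 0 in 1 library. The share of all genes separated in this way is not given here.

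Sequence around the start sites was examined because AHR and ARNT bind a short element with the core GCGTG. RefSeq promoter windows (GRCm38.p6, 250 bases before to 50 after the start) were at hand for 6 of the 7 genes, Ahr being the one without. The core, on either strand, was in 5 of the 6 windows, all but that of Nqo1, and in 32.4% of all 32851 windows. The longer form TNGCGTG, which contains the core, was in the window of Ahrr alone and in 5.07% of all windows. The antioxidant element TGACNNNGC was in the window of Arnt and in 12.4% of all windows, and not in that of Nqo1. These matches describe the letters of a short window, and say nothing of binding or of more distant elements. The windows of 2 genes that rose and of the 2 genes at low counts are shown, 5′ to 3′ on the gene's strand, with the core in capitals (CACGC where it reads on the opposite strand).
Cyp1b1: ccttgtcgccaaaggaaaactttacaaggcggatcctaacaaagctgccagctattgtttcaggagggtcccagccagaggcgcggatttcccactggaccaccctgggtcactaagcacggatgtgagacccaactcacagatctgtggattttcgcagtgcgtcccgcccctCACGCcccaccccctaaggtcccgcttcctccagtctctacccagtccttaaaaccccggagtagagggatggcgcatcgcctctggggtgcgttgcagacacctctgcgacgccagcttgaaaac
Tiparp: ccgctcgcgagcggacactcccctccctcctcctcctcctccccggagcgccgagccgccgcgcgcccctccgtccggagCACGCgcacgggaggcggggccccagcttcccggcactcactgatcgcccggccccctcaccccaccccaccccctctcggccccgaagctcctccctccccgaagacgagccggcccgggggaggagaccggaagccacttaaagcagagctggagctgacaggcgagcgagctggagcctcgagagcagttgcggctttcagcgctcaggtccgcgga
Ahrr: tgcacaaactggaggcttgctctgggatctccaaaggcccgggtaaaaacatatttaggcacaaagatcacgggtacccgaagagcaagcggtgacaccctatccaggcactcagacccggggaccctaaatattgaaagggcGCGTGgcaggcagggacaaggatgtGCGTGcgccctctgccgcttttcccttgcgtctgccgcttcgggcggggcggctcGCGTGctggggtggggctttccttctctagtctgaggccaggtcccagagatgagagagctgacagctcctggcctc
Cyp1a1: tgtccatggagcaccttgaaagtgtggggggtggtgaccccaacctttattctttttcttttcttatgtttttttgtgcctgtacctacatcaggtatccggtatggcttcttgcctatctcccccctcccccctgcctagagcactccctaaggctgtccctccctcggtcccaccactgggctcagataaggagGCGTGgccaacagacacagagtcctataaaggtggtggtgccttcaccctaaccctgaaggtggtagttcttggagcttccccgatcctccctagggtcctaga
The Cyp1b1 window is chr17:79715012-79715311, minus strand, and its core starts 76 bases before the start site. The Tiparp window is chr3:65528197-65528496, plus strand, with the core 170 bases before the start. In the Ahrr window, chr13:74292282-74292581, minus strand, 3 cores begin 107, 82 and 27 bases before the start. The Cyp1a1 window, chr9:57697363-57697662, plus strand, has its core at 54 bases. In PM2.5, Ahrr with its 3 cores had a mean of 0.425 CPM, and Tiparp with 1 core a mean of 112 CPM. Against controls, Ahrr had a scaled ratio of 4.81, from few counts, and Tiparp a fold of 1.86. A link of core number to level or to change was not tested.

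Ahr (ENSMUSG00000019256, chromosome 12, 35547973 to 35585037, minus strand, GRCm39), the receptor itself, had 22.2 and 25.5 CPM in controls, and 19.6 and 22.6 CPM under PM2.5. The groups overlapped, since PM2.5 replicate 2 lay above Control replicate 1. The log2 fold change was -0.19 (SE 0.11), with an adjusted p of 0.189. Across the alternative analyses it ranged from -0.29 to -0.08, and none of them called it.

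Arnt (ENSMUSG00000015522, chromosome 3, 95341699 to 95404551, plus strand), the partner that AHR needs to bind DNA and that HIF-1alpha also uses, had 82.0 and 85.3 CPM in controls and 91.4 and 96.6 CPM in PM2.5. Both PM2.5 libraries were above both controls, by a small margin. The log2 fold change was 0.17 (SE 0.062), with an adjusted p of 0.0518, which missed the threshold. It passed under 5 of the 16 alternatives, all with a log2 fold change between 0.17 and 0.23. The call therefore rested on the processing, and the direction did not.

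Ahrr (ENSMUSG00000021575, chromosome 13, 74359237 to 74440450, minus strand) competes with AHR for ARNT and is itself a target of the receptor. It had 2 and 2 counts in controls, and 11 and 6 under PM2.5. In CPM, these were 0.105 (95% exact Poisson interval 0.0127 to 0.38) and 0.0776 (0.00939 to 0.28) in controls, and 0.533 (0.266 to 0.954) and 0.316 (0.116 to 0.688) in PM2.5. The summed counts, 4 and 17, gave a scaled ratio of 4.81 (95% counting interval 1.57 to 19.6). These intervals cover counting error only. Ahrr did not pass the filter on low counts, and without that filter its log2 fold change was 2.17 with an adjusted p of 0.0577.

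The authors deposited a further, wider count per gene, named total gene reads, that was never below the raw count and whose difference from it the headers do not define. In this count Ahrr had 9 and 15 reads in controls, and 39 and 36 under PM2.5. The groups did not overlap, and most of its reads lay outside the raw count. Per library these were from 71.8% (95% exact Clopper-Pearson interval 55.1% to 85.0%) to 86.7% (59.5% to 98.3%) of them. The same test on the wider count gave a log2 fold change of 1.77 (SE 0.33) and an adjusted p of 0.00266 over 13928 genes, of which 18.8% were called higher and 20.5% lower. Ahrr entered this test through its PM2.5 libraries, where its reads were higher, so its call is not independent of that rise. With these reads 5 of the 7 genes were called higher, the 3 above, Ahrr and Arnt (log2 fold change 0.20, adjusted p = 0.0301). The share of reads outside the raw count was 9.81% and 10.5% over all genes in the controls and 11.7% and 11.6% in the PM2.5 libraries. For Arnt it was 13.0% (11.5% to 14.6%) and 15.6% (14.2% to 17.0%) in controls, and 18.6% (17.0% to 20.2%) and 18.4% (16.8% to 20.1%) under PM2.5. What part this rise in the share had in the wider-count results was not tested.

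**Figure D2:**
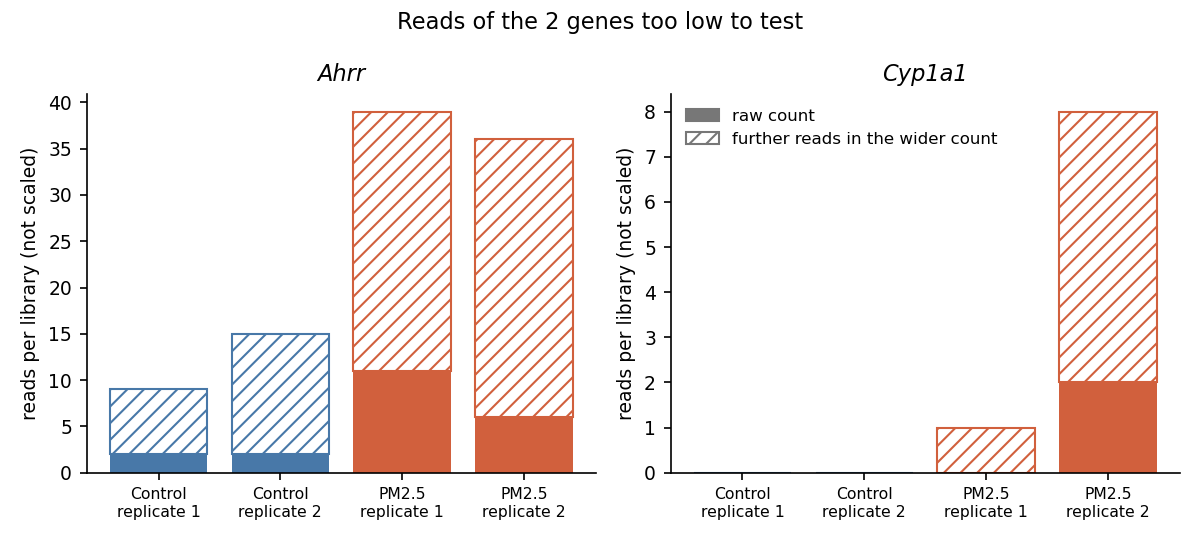
Reads of Ahrr and Cyp1a1 in each library, not scaled for depth: filled bars are the raw count and hatched bars the further reads of the wider count. Ahrr had 9 and 15 reads in controls against 39 and 36 in PM2.5, and Cyp1a1 had 0 and 0 against 1 and 8.

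Tiparp (ENSMUSG00000034640, chromosome 3, 65435831 to 65462939, plus strand) encodes PARP7, a mono-ADP-ribosyltransferase that modifies AHR and limits its activity. It had 58.4 and 62.3 CPM in controls, and 109.6 and 115 CPM under PM2.5. The groups stood well apart, with the libraries of each group close together. The log2 fold change was 0.89 (SE 0.064, adjusted p = 5.19e-06), the 752nd highest of 12478 genes. It kept its call under every alternative run, with values from 0.77 to 0.96.

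Cyp1a1 (ENSMUSG00000032315, chromosome 9, 57595211 to 57611107, plus strand) encodes the cytochrome P450 that oxidises polycyclic aromatic hydrocarbons. It had 0 counts in both controls and in PM2.5 replicate 1, and 2 counts, or 0.105 CPM (95% exact Poisson interval 0.0128 to 0.381), in PM2.5 replicate 2. By the same interval, the 0 counts of the controls allowed up to 0.194 and 0.143 CPM (with 3 counts as the limit, 0.158 and 0.116 CPM). These overlap the interval of PM2.5 replicate 2, and no difference was detectable at this depth in the raw counts. In the wider count Cyp1a1 had 0 and 0 reads in controls and 1 and 8 in PM2.5. Of the 9 reads, 8 were in a single library, and without PM2.5 replicate 2 only 1 read remained.

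Cyp1b1 (ENSMUSG00000024087, chromosome 17, 80008966 to 80022490, minus strand), the extrahepatic cytochrome P450 of the same family, which acts on hydrocarbons and on oestradiol, had 74 and 109 counts in controls and 426 and 378 in PM2.5. In CPM these were 3.89 and 4.23 against 20.7 and 19.9. The PM2.5 libraries lay close together and far above the controls. The log2 fold change was 2.31 (SE 0.13, adjusted p = 7.62e-07), or 4.97-fold, the 129th highest of the genes tested. It was among the 574 genes called higher by more than 2-fold, which were 4.6% of those tested.

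Nqo1 (ENSMUSG00000003849, chromosome 8, 108114857 to 108129838, minus strand) encodes a quinone reductase that responds to both AHR and the oxidative stress factor NRF2. It had 29.9 and 29.2 CPM in controls and 50.2 and 54.1 CPM in PM2.5. The groups did not overlap. The log2 fold change was 0.82 (SE 0.075, adjusted p = 2.28e-05). The 50 tested genes on either side of Nqo1 on its chromosome had a median log2 fold change of -0.36, and Nqo1 rose within that stretch. Measured against that median, its log2 fold change was 1.18. For the other tested genes the median of the neighbours lay between -0.13 (Cyp1b1) and 0.12 (Tiparp). The cause of the regional shift was not tested.

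**Figure D3:**
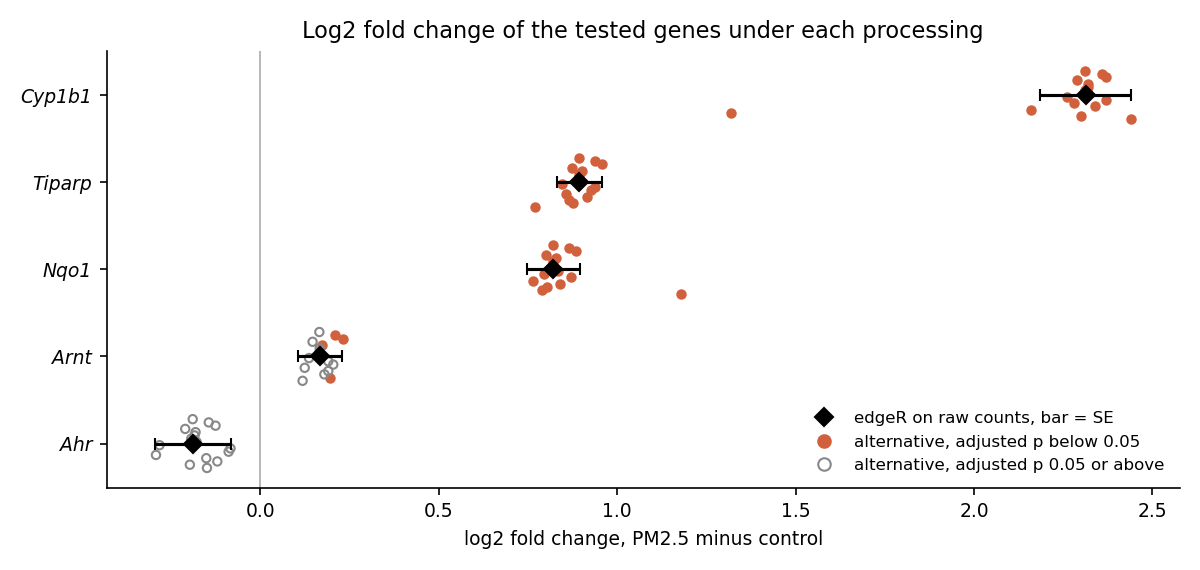
Log2 fold change, PM2.5 minus control, of the 5 tested genes: diamonds are edgeR on raw counts with its SE, circles the 16 alternative analyses, filled where the adjusted p was below 0.05. Cyp1b1, Tiparp and Nqo1 are filled throughout, Ahr is open throughout and Arnt is mixed.

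Per gene length, the order of the genes differed between the groups in that Tiparp and Arnt changed places. In the authors' RPKM, which divide counts by gene length and library size, the control means were 15.8 for Nqo1, 14.4 for Arnt, 12.0 for Tiparp, 3.58 for Ahr, 0.578 for Cyp1b1, 0.016 for Ahrr and 0 for Cyp1a1. In PM2.5 they were 28.4 for Nqo1, 22.6 for Tiparp, 16.5 for Arnt, 3.21 for Ahr, 2.93 for Cyp1b1, 0.0754 for Ahrr and 0.016 for Cyp1a1. Neighbours in the control order did not overlap between libraries above the level of Ahrr, with Arnt at 14.1 and 14.7 RPKM and Tiparp at 11.6 and 12.4. In PM2.5, Ahr (2.98 and 3.44 RPKM) and Cyp1b1 (2.98 and 2.89 RPKM) were not separated beyond the spread of the libraries. In controls the same pair had been apart, with Cyp1b1 at 0.554 and 0.603 RPKM against 3.32 and 3.83 for Ahr. Even after its rise, Cyp1b1 thus remained well below Nqo1 and Tiparp in level per length.

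The genes most like the called ones were sought by the root-mean-square difference over the 4 libraries of log2(CPM + 0.5), set to the control mean, among 4607 called and named genes with a mean of at least 1 CPM. For Cyp1b1 the nearest was Anxa8, an annexin (0.0652). For Tiparp they were the centrin gene Cetn4 (0.0155) and the sorting receptor gene Sorl1 (0.03), and for Nqo1 they were Jade2 (0.027) and Commd1b (0.0273). The added 0.5 CPM compresses low genes, and Sorl1 at 0.599 CPM in controls had a fitted log2 fold change of 1.39 against 0.89 for Tiparp.

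Among other known targets of the receptor, Aldh3a1 rose most by fold of those tested. Of a list of 23, 13 were tested, and 7 were called higher and 1 lower (19.2% and 20.4% of all genes tested), with a median log2 fold change of 0.30 against 0.0063 for all genes tested. Aldh3a1, an aldehyde dehydrogenase of the classical receptor battery, had 27.6 and 24.3 CPM in controls and 177 and 189 in PM2.5, which on the log2 scale is 2.83 (SE 0.076, adjusted p = 4.85e-09), beside 2.31 for Cyp1b1. Nfe2l2, which encodes NRF2, rose from 164 ± 10.8 to 202 ± 8.39 CPM, and the glucuronosyltransferase Ugt1a6b from 20.2 ± 0.986 to 26.7 ± 2.83 CPM. The Ugt1a6b call ended without PM2.5 replicate 2 (adjusted p = 0.109). Ugt1a6a, Ugt1a7c, Ido2, of tryptophan breakdown, and the xanthine dehydrogenase gene Xdh were also called higher, and are named after their values were seen. Their calls ended under 6, 2, 4 and 2 of the 16 alternatives. Ido2 passed the filter on low counts in part through the PM2.5 libraries, where it was higher. The Ugt1a genes share exons, so their counts are uncertain and their calls are not independent of each other in the count of 7. Without PM2.5 replicate 1 the log2 fold change of Ugt1a7c went from 1.64 to 0.85 and lost its call. Slc7a5, an amino acid transporter, was the one called lower, from 295 ± 36.5 to 172 ± 5.23 CPM. Its neighbours on the chromosome had a median log2 fold change of -0.33, and measured against it the log2 fold change of Slc7a5 went from -0.78 to -0.45, still called. Gsta1, named after its values were seen, had 32 and 33 counts in controls, and 19 and 3 in PM2.5. Its log2 fold change was -1.38 (SE 0.51), and it missed the edgeR threshold (adjusted p = 0.0522). The same test on the wider count called it lower (adjusted p = 0.0356). Cyp1a2, the closest relative of Cyp1a1, had 0 counts in every library, as had Serpinb2, Scin, Il24 and Lrat. DESeq2 called 5 of the list higher, and 4 were called without Control replicate 1 or without the filter on low counts.

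Of the cytosolic complex that holds the receptor, 5 genes were tested, and 3 were called lower and 1 higher, beside 20.4% and 19.2% of all genes tested. The HSP90 gene Hsp90ab1 fell from 3840 ± 245 to 2820 ± 109 CPM (log2 fold change -0.45, adjusted p = 7.642e-04), and the co-chaperone p23 gene Ptges3 from 333 ± 6.9 to 279 ± 7.64 CPM. The call on Ptges3 ended without PM2.5 replicate 2 (adjusted p = 0.0563). Hsp90aa1 went from 1284 to 1097 CPM, and its call ended under 7 of the 16 alternatives. Src, a kinase found in the complex, rose from 74.6 to 92.5 CPM, a call that ended when measured against its neighbours on the chromosome (adjusted p = 0.161). With PM2.5 replicate 2 left out, 1 gene of the complex was lower.

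Relatives of AHR and ARNT and their coactivators were mostly not called or higher. Of 14 tested, 5 were called higher and 1 lower, beside 19.2% and 20.4% of all genes, with a median log2 fold change of 0.24. Sim2, which encodes another PAS factor that pairs with ARNT, went from 5 and 8 counts to 36 and 24, or 2.36 on the log2 scale (SE 0.43, adjusted p = 0.00167). It passed the filter on low counts only through the PM2.5 libraries, where it was higher. Arnt2, the paralogue of Arnt, rose from 4.5 ± 0.109 to 7.17 ± 0.0667 CPM, and the clock factor Bmal1 from 18.4 to 24.3 CPM. The Bmal1 call ended without PM2.5 replicate 2 (adjusted p = 0.113). At these levels Arnt2 had far fewer counts than Arnt. Hif1a, of the hypoxia response, fell from 482 to 392 CPM, but was not called when measured against its neighbours (adjusted p = 0.0728). The coactivators Ncoa1 and Ncoa2 were the other members called higher, named after their values were seen, and their calls ended under 2 and 7 of the alternatives. Without PM2.5 replicate 2, 2 members were higher.

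Because ARNT also serves HIF, targets of that factor were examined. Of 13 tested, 2 were called higher and 1 lower, no larger a share than the 19.2% and 20.4% of all genes tested, and the median log2 fold change was 0.027. Vegfa rose from 60.6 ± 15.4 to 92.0 ± 7.97 CPM and Pdk1 from 41.0 ± 20.0 to 74.7 ± 16.8 CPM, and both calls ended with DESeq2 (adjusted p = 0.0802 and 0.241). The call on Pdk1 also ended without the filter on low counts (0.0644) and in both analyses of RPKM (0.051 and 0.0559). Without Control replicate 1 the log2 fold change of Pdk1 went from 0.84 to 0.43 and that of Vegfa from 0.59 to 0.36, and without Control replicate 2 that of Pdk1 was 1.47. Adm, which encodes adrenomedullin, fell from 16.9 ± 0.827 to 11.5 ± 0.713 CPM. Slc2a1, a glucose transporter, was not called (log2 fold change -0.19, adjusted p = 0.0718), and was called lower under 3 of the alternatives. The 2 control libraries differed in this list: Car9, chosen after its values were seen, had 72 counts in Control replicate 1 and 1180 in Control replicate 2. Without Control replicate 1 the list had 6 members lower, and without Control replicate 2 it had 7 higher. For Cyp1b1, Tiparp and Nqo1 the controls lay close together, and their log2 fold changes without either control stayed within 2.26 to 2.37, 0.85 to 0.94 and 0.80 to 0.83.

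Nqo1 was also set beside 20 other targets of NRF2. Of 19 tested, 3 were called higher and 7 lower, beside 19.2% and 20.4% of all genes, and the median log2 fold change was -0.14 against 0.82 for Nqo1. The ferritin heavy chain Fth1 rose from 4449 ± 245 to 7761 ± 358 CPM and the glutathione transferase Gstm1 from 39.8 ± 2.23 to 54.8 ± 4.67 CPM. Against their neighbours the log2 fold change of Fth1 went from 0.80 to 0.57 and that of Gstm1 from 0.46 to 0.34, both still called. The peroxiredoxin Prdx1 fell from 477 ± 21.2 to 361 ± 17.0 CPM, and against its neighbours its log2 fold change went from -0.40 to -0.24, still called. Abcc1, a transporter of glutathione conjugates, fell from 207 to 153 CPM and lost its call against its neighbours (adjusted p = 0.121). The other called members are named after their values were seen. Osgin1, an oxidative stress-induced growth inhibitor gene, was called higher, at 4.81 CPM and then 7.38 CPM. Against its neighbours its log2 fold change went from 0.61 to 0.96. Its call ended with DESeq2 and without PM2.5 replicate 1. Gclc, of glutathione synthesis, Gsr, glutathione reductase, Txnrd1, a thioredoxin reductase, Tkt, a transketolase, and the haem oxygenase gene Hmox1 were called lower. The calls on Gclc and Gsr held under all 16 alternatives, and those on Txnrd1 and Tkt ended without PM2.5 replicate 2, that on Tkt also without PM2.5 replicate 1. Without Control replicate 1 the log2 fold change of Txnrd1 went from -0.33 to -0.19. Hmox1 had a mean of 80.6 CPM in controls, against 69.9 CPM under PM2.5, and its call ended under 7 of the 16 alternatives. Without PM2.5 replicate 2, 4 members were lower.

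**Figure D4:**
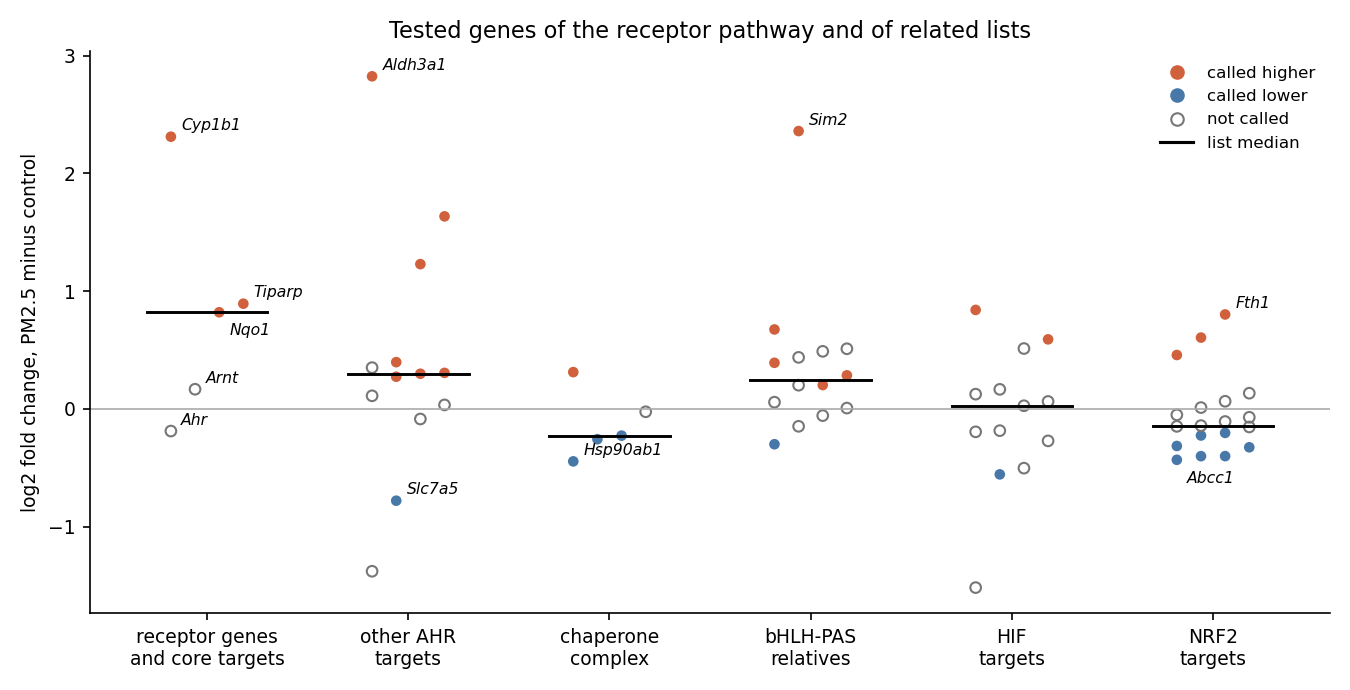
Log2 fold change, PM2.5 minus control, of every tested gene of the receptor set and of 5 related lists, with list medians as lines and calls by colour. The median is 0.82 for the receptor genes and core targets, 0.30 for other receptor targets and -0.14 for NRF2 targets.

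Tiparp belongs to a family of ADP-ribosylating enzymes, and each of the 10 relatives listed had a smaller log2 fold change. The list held 11 genes, 10 of them relatives of Tiparp and 1, Macrod1, an enzyme that removes ADP-ribose and is no transferase. Of the 10 relatives, 3 were called higher and 0 lower by edgeR, beside 19.2% and 20.4% of all genes, and over all 11 genes the median was 0.24 (log2). The number lower was 0 also at an unadjusted p below 0.05 and with DESeq2. Parp8 rose from 28 ± 2.92 to 38.7 ± 0.429 CPM, Parp10 from 49.0 to 58.5 CPM and Parp4 from 46.4 to 60.3 CPM. The Parp4 call ended against its neighbours (adjusted p = 0.107), and that on Parp10 with DESeq2 and without Control replicate 2 or PM2.5 replicate 2. Macrod1 rose from 11.2 ± 1.1 to 26 ± 2.29 CPM. It alone of these 11 genes had a log2 fold change, 1.198, above that of Tiparp.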

How the data were processed

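The authors deposited unnormalized raw counts for each gene. The build was GRCm39, per the submitters' processing notes. They also deposited RPKM and a wider count named total gene reads, per the file headers. Aligner, counter, annotation and use of strand were not given in the sources used here. No other gene of the count table overlapped the 7 genes. Libraries came from a stranded polyA kit, per the labels' protocols. The genes and lists were chosen with earlier results of these data known.

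Counts were tested in R 4.3.3 with edgeR 4.0.16 (filterByExpr, which kept 12478 genes, TMM factors, quasi-likelihood F test, unpaired, Benjamini-Hochberg over all tested genes, threshold 0.05). CPM are TMM scaled. Each SE was derived from the log2 fold change and its F statistic. A floor of 3 counts was 0.116 to 0.158 CPM per library. Replicates differed by more than sampling noise (chi-square per gene 6.92 in controls, 3.63 in PM2.5).

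The 16 alternatives were other scalings (median-ratio, upper quartile, library size only), no filter, a stricter filter (at least 50 counts in total, and 1 CPM in 2 libraries), DESeq2 1.42.0, limma 3.58.1 (voom, and trend on log2(RPKM + 0.1) and log2(RPKM + 1)), a replicate block, leaving out each library, the wider count, and an offset for the median of the 50 tested genes on either side. All 7 genes are named, with up to 4 genes of smallest p from each list, and up to 2 genes most like each called one; others are marked. Some of the genes these choices name are not reported here.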

Additional observations from a re-analysis of the deposited data

Results flagged for a closer look

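The reads of the wider count that lie outside the raw count were more numerous in PM2.5 than in controls for the 2 genes too low to test. For Ahrr these further reads numbered 7 and 13 in the controls and 28 and 30 in the PM2.5 libraries, 58 in all in PM2.5. For Cyp1a1 they numbered 0 and 0 in the controls and 1 and 6 in the PM2.5 libraries, 7 in all, of which 6 came from PM2.5 replicate 2, so that for Cyp1a1 a level above the controls rests on that library.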

How the results depend on the processing

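Cyp1b1, Tiparp and Nqo1 kept their direction and call under all 16 alternatives, with log2 fold changes of 1.32 to 2.44, 0.77 to 0.96 and 0.77 to 1.18. The lowest Cyp1b1 value came from log2(RPKM + 1), whose added 1 exceeds its control level. That setting also gave 0.314 for Sim2 and 0.279 for Arnt2. Arnt passed the threshold with upper quartile factors (0.21), library size only (0.23), the stricter filter (0.173), the replicate block (0.168) and the wider count (0.195). Without single libraries it ranged from 0.124 to 0.204, and was not called. The wider count gave 5 receptor genes higher, since Ahrr then passed the filter, through its PM2.5 libraries, and Arnt the threshold. Ahrr had adjusted p-values of 0.0725 to 0.174 without single libraries where it passed the filter. With a library left out, the lone sample of its group is assumed to vary like the other group.

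Over all genes, DESeq2 called 1581 higher, and without single libraries 1492 to 2267 were higher and 1618 to 2575 lower. The positional correction left 0 chaperone complex genes higher and 0 relatives of the receptor lower. Without single libraries, 1 to 3 complex genes were lower, 2 to 5 relatives higher, 4 to 7 other receptor targets higher and 1 to 2 lower, 4 to 9 NRF2 targets lower, and 2 to 7 HIF targets higher and 1 to 6 lower. With no filter 4 other receptor targets were higher. With limma-voom, the replicate block, log2(RPKM + 1) or the wider count 2 of them were lower. HIF targets called higher numbered 1 with no filter or either RPKM pseudocount, 0 with DESeq2 and 4 with the replicate block. Those called lower numbered 4 with the block and 2 with the wider count. For these changes the cause was not tested.

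The labels do not say whether samples with the same replicate number share a culture or a day. Their deviations from the group means correlated at 0.164 across 12478 genes, which does not settle it with 2 pairs. With the number as a block, 2819 genes were higher and 2974 lower. Depth limits Ahrr and Cyp1a1, which had too few counts to be tested.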
